A study of Mus musculus with 13 samples.

Results

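Ribosome footprints on 10 genes that restrain mTORC1, or that block cap-dependent translation when mTORC1 is off, are described here across ER stress. The genes were taken by symbol from 22406 in the deposited tables, and the list was drawn up with earlier results of these data known. They were the sestrins Sesn1, Sesn2 and Sesn3, Ddit4, the tuberous sclerosis genes Tsc1 and Tsc2, Deptor, Akt1s1, and the 4E-binding protein genes Eif4ebp1 and Eif4ebp2. Mouse embryonic fibroblasts (MEFs) were PERK WT or PERK -/-, the latter without the eIF2α kinase PERK, and were either untreated or given 1 μM thapsigargin (Tg) for 1, 2, 5 or 8 h. NIH3T3 cells, an immortalized mouse fibroblast line with no genotype given in its labels, were untreated or given 200 nM Tg for 2 or 7 h. Tg empties the ER calcium store by blocking the SERCA pump, and no group was given cycloheximide before harvest. All 13 conditions had a single library, which leaves no replicate spread to set a change against. The labels name no second line of either MEF genotype, so an effect of genotype cannot be told apart from one of the line or the library.

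mTORC1 is a lysosomal kinase complex that drives protein synthesis when amino acids and growth factors are present. Sestrins hold it back under amino acid shortage by binding GATOR2, whereas DDIT4 (also called REDD1) acts through the TSC complex, which switches off the small GTPase Rheb. DEPTOR and PRAS40 (the product of Akt1s1) bind the kinase complex itself, and 4E-BPs, freed from its phosphorylation, capture the cap-binding protein eIF4E. PERK phosphorylates eIF2α during ER stress, which lowers general initiation and raises translation of the transcription factor ATF4. Sesn2, Ddit4 and Eif4ebp1 are known as ATF4 target genes in several cell types.

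Total expected counts ran from 2525029 in WT MEFs at 2 h to 14799515 in PERK -/- MEFs at 2 h. A limit of 3 counts was worth 1.19 CPM in the first and 0.203 in the second. All 10 genes passed a minimum mean of 2 TPM both in MEFs and in NIH3T3 cells, as did 10432 and 10117 genes in all. TPM, the density of footprints on a coding sequence relative to the rest of its library, was compared between each Tg library and the untreated library of its own cells. Values under 4 TPM were raised to 4 for this, and a ratio of at least 2 was counted as a rise or a fall. TPM is a share of its library, and fewer cells and less RNA per cell cannot be told apart in it, nor can mRNA abundance and ribosome load per mRNA. In the study's polysome profiles, overall translation dropped under Tg in WT MEFs and NIH3T3 cells. For PERK -/- MEFs the study describes only a slight drop, at 8 h. A rise or fall here is thus relative to the other genes of its library, and WT and PERK -/- changes share no absolute scale. Intervals are exact at 95% on expected counts and cover counting error alone. The median of all expressed genes moved by over 0.1 on the log2 scale in PERK -/- MEFs at 2 h, by -0.11, and in NIH3T3 cells at 2 h, by -0.13. Under other scalings, the share of upward calls among all calls moved from 17.5% to at most 33.4% in PERK -/- MEFs at 1 h and from 9.73% to at most 28.8% at 2 h. At 8 h it moved from 54.5% to at least 40.2%, and in NIH3T3 cells at 2 h from 60.5% to at most 78.2%. Fibroblast markers summed to between 2308 and 7520 TPM in the 3 series of libraries, and leukocyte markers to at most 4.80 TPM. The highest fibroblast marker was Col1a1 in MEFs, at up to 2207 TPM, and S100a4 in NIH3T3 cells, at up to 5328 TPM. Of the 10 fibroblast markers, 9 averaged at least 2 TPM in WT MEFs and 9 in NIH3T3 cells. Endothelial and muscle markers summed to at most 5.14 and 11.7 TPM, and epithelial markers to at most 17.7 TPM, most of it Krt18 and Krt8. The part of these in the results was not tested. Eif2ak3, which encodes PERK (chr6:70844484-70905241 of mm10), had 7.64 to 19.1 CPM in PERK -/- libraries and 14.4 to 33.3 in WT libraries. In TPM it was the higher in the untreated PERK -/- library, at 11.2 against 6.03 (1.85-fold), and the lower there in counts, at -0.95 (-1.35 to -0.57) on the log2 scale. Over the 5 libraries of each genotype its TPM ran from 5.21 to 17.2 in PERK -/- and from 6.03 to 15.7 in WT MEFs. At matched times CPM was the lower in PERK -/- MEFs in each pair, without Tg at 11.0 against 21.3. At 1, 2, 5 and 8 h the PERK -/- values were 8.99, 7.64, 13.2 and 19.1. Those of WT MEFs were 14.4, 19.0, 33.3 and 32.7. TPM was the lower in PERK -/- MEFs at 1 h and 2 h alone, and counts per gene hold no position that would check the deletion.

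The promoters of Sesn2 and Ddit4, which rose in WT MEFs, and of Sesn3, which fell, are shown first, for the letters that they share. Windows of 300 bases around the start of transcription (250 before and 50 after) were found for 8 of the 10 genes, 9 windows in all, in RefSeq's table for GRCm38.p6, the assembly of mm10. None was found for Deptor or for Eif4ebp1, which also rose in WT MEFs. The 250 bases before the start, on the gene's own strand, cover chr4:132510457-132510706 (minus strand) for Sesn2, chr10:59951771-59952020 (minus strand) for Ddit4 and chr9:14276051-14276300 (plus strand) for Sesn3. Capitals mark a CCAAT box, read here on the opposite strand as ATTGG.
Sesn2: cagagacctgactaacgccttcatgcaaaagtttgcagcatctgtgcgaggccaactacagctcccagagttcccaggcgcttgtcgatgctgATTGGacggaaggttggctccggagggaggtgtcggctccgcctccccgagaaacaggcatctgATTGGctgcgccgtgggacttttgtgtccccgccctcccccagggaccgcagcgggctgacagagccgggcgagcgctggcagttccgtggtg
Ddit4: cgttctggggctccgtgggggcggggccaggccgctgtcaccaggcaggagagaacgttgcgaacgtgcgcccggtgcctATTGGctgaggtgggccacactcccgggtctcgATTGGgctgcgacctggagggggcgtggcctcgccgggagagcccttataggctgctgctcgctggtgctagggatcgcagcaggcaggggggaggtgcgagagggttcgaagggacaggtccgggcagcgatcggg
Sesn3: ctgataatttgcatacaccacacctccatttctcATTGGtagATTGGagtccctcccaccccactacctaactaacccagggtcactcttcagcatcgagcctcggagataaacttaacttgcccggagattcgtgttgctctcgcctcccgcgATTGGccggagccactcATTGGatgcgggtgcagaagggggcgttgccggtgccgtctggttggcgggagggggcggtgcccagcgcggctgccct

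The box lay 157 and 93 bases before the start of Sesn2, 170 and 137 bases before that of Ddit4, and 216, 208, 96 and 79 bases before that of Sesn3. Both windows of Sesn1 held it as well, and those of Tsc1, Tsc2, Akt1s1 and Eif4ebp2 did not. Of the genes that fell in WT MEFs, Sesn3 thus held the box and Eif4ebp2 did not. At least 1 box was found on either strand in 37.4% of all 32851 promoter windows, and at least 2 in 11.7%. The box was searched after the values were seen, and a match is a description of letters, not of binding. The C/EBP-ATF element TGATGCAA (0.895% of all windows), its relaxed form TGATGNAA, which includes it (3.97%), the cyclic AMP element TGACGTCA (1.79%) and the ER stress element ERSE (0.119%) were in none of the 9 windows. The FoxO motif GTAAACA (3.65% of all windows) was in 1 window of Sesn1, after the start. GC content of the printed stretches was 63.2% for Sesn2, 70.0% for Ddit4 and 59.6% for Sesn3.

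**Figure D1:**
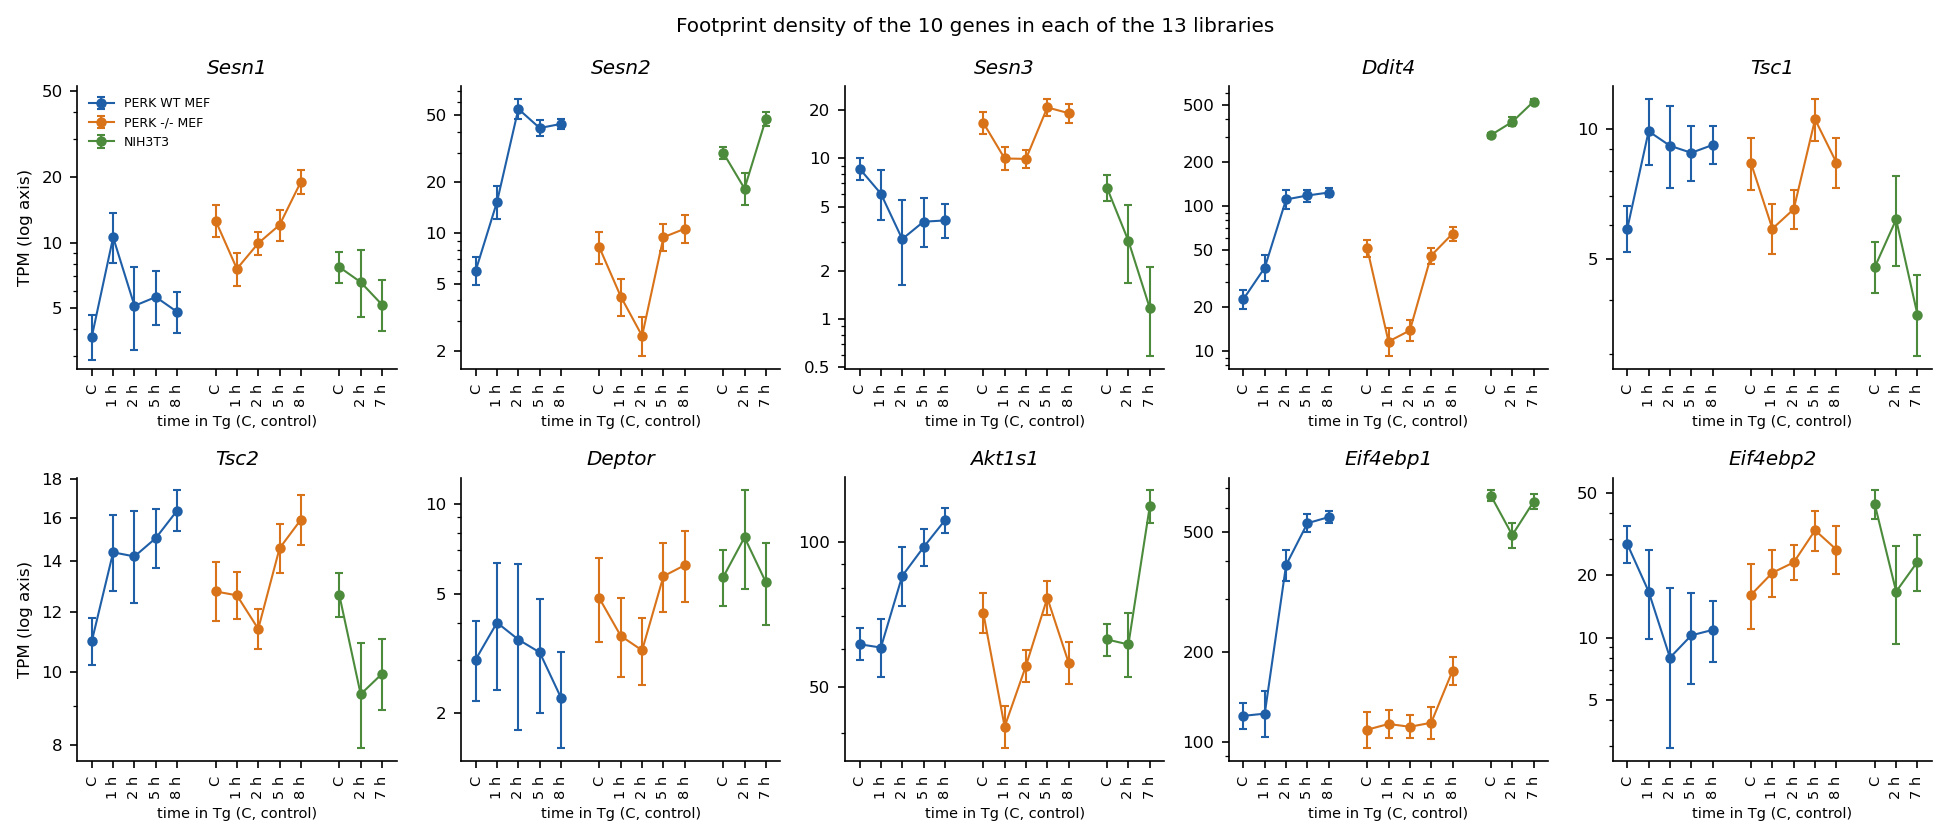
TPM (log axis, a scale of its own in each panel) of the 10 genes in the 13 libraries, with exact 95% counting intervals, for PERK WT MEFs (blue), PERK -/- MEFs (orange) and NIH3T3 cells (green), which come from a separately normalized table. In WT MEFs Ddit4 and Eif4ebp1 climb to 124 and 559 TPM at 8 h, while Sesn2 is highest at 2 h, at 54.6 TPM, with 44.5 at 8 h. Sesn3 and Eif4ebp2 decline there, and in PERK -/- MEFs Sesn2 and Ddit4 have their lowest levels at 2 h and 1 h.

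In WT MEFs under Tg, footprints of Sesn2, Ddit4 and Eif4ebp1 rose from 2 h onwards, relative to the rest of their library. Those of Sesn3 and Eif4ebp2 fell. Sesn1 and Sesn2 were the genes that rose at 1 h, when none of the 10 fell. At each of 2, 5 and 8 h, 3 of the 10 rose and 2 fell. Of all expressed genes, 4.33%, 5.66%, 5.86% and 6.45% rose at 1, 2, 5 and 8 h, and 2.29%, 4.01%, 3.55% and 3.87% fell. The median log2 change of the 10 genes was 0.21, 0.42, 0.54 and 0.61 at these times, beside 0.00, 0.00, 0.00 and 0.01 over all expressed genes.

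PERK -/- MEFs had another course. None of the 10 genes rose at 1 or 2 h, Ddit4 fell at both times, and Sesn2 fell at 2 h. At 5 h Eif4ebp2 alone rose and none fell, and at 8 h no gene of the 10 passed 2-fold either way. Of all expressed genes, 0.719%, 0.623%, 3.26% and 3.28% rose at 1, 2, 5 and 8 h, and 3.38%, 5.78%, 4.77% and 2.73% fell. The median log2 change of the 10 was -0.62, -0.35, 0.20 and 0.35, against -0.06, -0.11, 0.00 and 0.04 over all genes. In NIH3T3 cells, Eif4ebp2 fell at 2 h and no other gene of the 10 passed 2-fold at 2 h or 7 h, where 5.76% and 7.01% of all expressed genes rose and 3.76% and 8.06% fell. The median of the 10 in NIH3T3 cells was -0.33 at 2 h and -0.16 at 7 h, against -0.13 and 0.00 over all.

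Sesn2 (chr4:132492804-132510456 of mm10, minus strand) encodes a leucine-sensing sestrin. Its TPM in WT MEFs was 5.99 without Tg and 15.35, 54.6, 42.1 and 44.5 at 1, 2, 5 and 8 h. Its TPM in PERK -/- MEFs was 8.23 without Tg and 4.21, 2.46, 9.47 and 10.6, and in NIH3T3 cells 30.03 without Tg, 18.4 at 2 h and 47.5 at 7 h. All 4 WT Tg libraries lay above their control, and no PERK -/- library reached the level of any of them. The rise in WT MEFs was 2.56-fold at 1 h, 9.12-fold at 2 h, 7.02-fold at 5 h and 7.43-fold at 8 h, and at 2 h Sesn2 ranked 16 of 10432 expressed genes. On expected counts the log2 change at 2 h was 3.19 (2.85 to 3.55) in WT MEFs, from 105 to 203 counts. In MEFs lacking PERK, it was -1.67 (-2.19 to -1.16) at 2 h, from 81 to 56 counts in a larger library, and 0.36 (-0.06 to 0.79) at 8 h. The size of the fall of Sesn2 in PERK -/- MEFs at 2 h depended on the floor, at -1.04 with 4 TPM and -1.74 with 1 TPM (log2). The intervals of the 2 genotypes did not overlap at any of the 4 times. NIH3T3 cells began from a higher level, in their own table, and changed on counts by -0.59 (-0.94 to -0.25) at 2 h and 0.66 (0.48 to 0.85) at 7 h, both short of 2-fold.

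Sesn3 (chr9:14276301-14326134, plus strand), a sestrin known as a FoxO target, took the opposite course. In WT MEFs its TPM was 8.62 without Tg and 6.02, 3.14, 4.03 and 4.10 at 1, 2, 5 and 8 h. PERK -/- MEFs had 16.6 without Tg and 9.97, 9.91, 20.7 and 19.1, and NIH3T3 cells 6.53 without Tg, 3.06 at 2 h and 1.17 at 7 h. All 4 WT Tg libraries were below their control, as were both of NIH3T3 cells, and all PERK -/- libraries lay above every WT library. The fall in WT MEFs was 2.15-fold at 2 h, 2.14-fold at 5 h and 2.10-fold at 8 h, close to the 2-fold limit, and rested on 12, 34 and 69 counts after 155 in the control. On counts, which have no floor, the log2 change was -1.45 (-2.43 to -0.60) at 2 h and -1.07 (-1.50 to -0.65) at 8 h. NIH3T3 cells at 7 h had 11 counts against 119, a log2 change of -2.49 (-3.53 to -1.59), which the floor of 4 TPM kept below 2-fold. In the PERK -/- cells, the same measure was -0.71 (-1.03 to -0.38) at 1 h, -0.67 (-0.96 to -0.38) at 2 h and 0.35 (0.07 to 0.64) at 5 h. The genotypes' intervals overlapped at 1 h and 2 h, and at 5 h and 8 h the WT interval was the lower.

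Sesn1 (chr10:41810574-41908436, plus strand), a sestrin first known as a p53 target, was highest at 1 h in WT MEFs, at 8 h in PERK -/- MEFs and without Tg in NIH3T3 cells. WT MEFs had 3.68 TPM without Tg and 10.6, 5.11, 5.61 and 4.79 at 1, 2, 5 and 8 h. PERK -/- MEFs had 12.6 without Tg and 7.57, 9.93, 12.1 and 19.1, and NIH3T3 cells 7.71, 6.57 and 5.17 without Tg and at 2 h and 7 h. The 1 h library stood above the other WT libraries, and Sesn1 rose 2.65-fold there, or 1.46 (0.95 to 1.98) on the log2 scale of counts, from 72 to 60 counts in a smaller library. At 2, 5 and 8 h the ratio was 1.28, 1.40 and 1.20. In PERK -/- MEFs the change of counts went from -0.71 (-1.06 to -0.36) at 1 h to 0.57 (0.27 to 0.88) at 8 h. WT and PERK -/- intervals were apart at 1 h and overlapped at 2, 5 and 8 h.

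The order of the sestrins changed in WT MEFs, where Sesn2 led in all 4 Tg libraries but not in the control. In untreated WT MEFs Sesn3 had 47.1% of the summed sestrin TPM, Sesn2 32.8% and Sesn1 20.1%. Sesn2 held 48.0%, 86.9%, 81.4% and 83.4% of it at 1, 2, 5 and 8 h, and the sum went from 18.3 to 32.0, 62.9, 51.7 and 53.4 TPM. For PERK -/- MEFs the share of Sesn2 was 21.95% without Tg and between 11.0% and 22.4% in Tg, and the sum was 37.5, 21.8, 22.3, 42.3 and 48.8 TPM. In NIH3T3 cells it led in all 3 libraries, with 67.8% without Tg, 65.6% at 2 h and 88.2% at 7 h. The ratio of Sesn2 to Sesn3, which does not depend on the scaling of the library, went from 0.695 (0.537 to 0.896) in untreated WT MEFs to 17.4 (9.74 to 34.2) at 2 h and 10.9 (8.47 to 14.1) at 8 h. In MEFs lacking PERK, it was 0.495 (0.375 to 0.649) without Tg, 0.248 (0.182 to 0.334) at 2 h and 0.557 (0.440 to 0.702) at 8 h. In every PERK -/- library Sesn2 was thus below Sesn3, and in every WT Tg library above it.

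**Figure D2:**
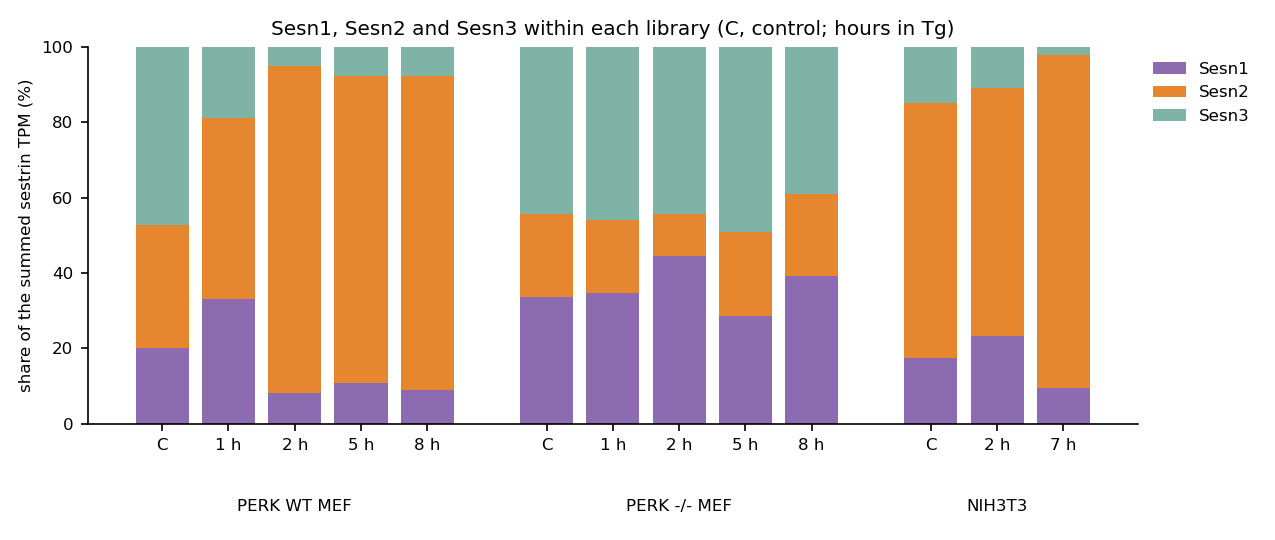
Share (%) of the summed TPM of Sesn1, Sesn2 and Sesn3 taken by each, in the 13 libraries (C, control, with hours in Tg), 1 stacked bar per library. Sesn2 takes 81.4% to 86.9% in WT MEFs from 2 h on, at most 22.4% in PERK -/- MEFs, and 65.6% to 88.2% in NIH3T3 cells.

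Ddit4 (chr10:59949675-59951770, minus strand), the stress-induced inhibitor that works through the TSC complex, had the deepest early dip in PERK -/- MEFs of the 10 genes. Its TPM in WT MEFs was 22.8 without Tg and 37.6, 111, 118 and 124 at 1, 2, 5 and 8 h. PERK -/- MEFs had 51.1 without Tg and 11.6, 13.9, 45.5 and 64.4, and NIH3T3 cells 309 without Tg, 381 at 2 h and 526 at 7 h. WT levels stepped up between 1 h and 2 h and then stayed between 111 and 124 TPM, whereas PERK -/- levels dropped at once and were back near the control at 5 h. In WT MEFs Ddit4 rose 4.87-fold at 2 h, 5.19-fold at 5 h and 5.44-fold at 8 h, and was 1.65-fold its control at 1 h. By 8 h the count change was 2.44 (2.21 to 2.69) for WT cells and 0.33 (0.07 to 0.58) without PERK. In the PERK -/- cells, Ddit4 fell 4.40-fold at 1 h, from 223 counts to 77 in a larger library, where it ranked 14 from the bottom of 10432 expressed genes, and 3.69-fold at 2 h. On counts these were -2.11 (-2.50 to -1.73) and -1.81 (-2.12 to -1.50), against 0.74 (0.35 to 1.11) and 2.29 (1.99 to 2.60) in WT MEFs. The intervals of the genotypes were apart at all 4 times. In NIH3T3 cells, where Ddit4 was well above its MEF levels in a separately normalized table, the change was 0.42 (0.30 to 0.54) at 2 h and 0.77 (0.68 to 0.85) at 7 h, short of 2-fold.

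Ddit4 footprints relative to those of Tsc2, its downstream partner, went from 2.08 (1.75 to 2.45) in untreated WT MEFs to 7.81 (6.36 to 9.59) at 2 h and 7.58 (6.92 to 8.30) at 8 h. In PERK -/- MEFs this ratio was 3.998 (3.40 to 4.69) without Tg, 0.920 (0.718 to 1.16) at 1 h and 4.05 (3.53 to 4.64) at 8 h.

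Tsc1 and Tsc2, whose products form the GTPase-activating complex for Rheb, did not pass 2-fold in any library. Tsc1 (chr2:28640993-28691172, plus strand) had 5.87 TPM in untreated WT MEFs and 9.90, 9.16, 8.82 and 9.20 at 1, 2, 5 and 8 h. Levels in PERK -/- MEFs were 8.34 without Tg and 5.87, 6.52, 10.55 and 8.37, and in NIH3T3 cells 4.78, 6.17 and 3.70. All 4 WT Tg libraries were above the control by 1.503 to 1.69-fold, and their count intervals lay above 0, with 0.65 (0.42 to 0.88) at 8 h. Against PERK -/- MEFs the WT interval was the higher at 1, 2 and 8 h. Tsc2 (chr17:24595816-24632676, minus strand) had 11.0 TPM in untreated WT MEFs and 14.4, 14.2, 15.0 and 16.4 in Tg. Its PERK -/- levels were 12.8 without Tg and 12.6, 11.4, 14.6 and 15.9, and those of NIH3T3 cells 12.6, 9.33 and 9.93. WT ratios of Tsc2 were 1.30 to 1.49 and its counts were among the largest of the 10 genes, so the interval at 8 h was narrow at 0.57 (0.43 to 0.71). In NIH3T3 cells the counts of Tsc2 lay lower than without Tg, by -0.38 (-0.63 to -0.13) at 2 h and -0.41 (-0.60 to -0.23) at 7 h.

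Akt1s1 (chr7:44849224-44855421, plus strand), which encodes the mTORC1-bound substrate PRAS40, had 61.2 TPM in untreated WT MEFs and 60.3, 84.9, 97.5 and 111 at 1, 2, 5 and 8 h. In MEFs lacking PERK, it had 71.1 without Tg and 41.3, 55.2, 76.4 and 56.0, and in NIH3T3 cells 62.7 without Tg, 61.2 at 2 h and 118 at 7 h. Every later WT library was higher than the one before from 1 h on, and the last reached 1.81-fold, short of the limit. On counts the change at 8 h was 0.87 (0.73 to 1.01) for WT cells and -0.28 (-0.48 to -0.08) in PERK -/- MEFs, where that at 1 h was -0.75 (-0.94 to -0.55). The WT interval was the higher at all 4 times. NIH3T3 cells at 7 h were at 1.89-fold in TPM and 0.92 (0.77 to 1.08) on counts.

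Deptor (chr15:55112317-55259273, plus strand), whose product binds mTOR in both of its complexes, had the lowest TPM of the 10 genes in 8 of 13 libraries. WT MEFs had 3.01 TPM without Tg and 4, 3.51, 3.18 and 2.24 in Tg, so all 5 values were at or under the floor. PERK -/- MEFs had 4.82, 3.61, 3.23, 5.72 and 6.23, and NIH3T3 cells 5.68, 7.72 and 5.46. With 11 to 85 counts per library, each of the 10 intervals of its change held 0, and those of WT and PERK -/- MEFs overlapped at all 4 times. A change of Deptor was not detectable at this depth.

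Eif4ebp1 (chr8:27260327-27275656, plus strand) encodes 4E-BP1, and had the highest TPM of the 10 genes in all 13 libraries. WT MEFs had 122 TPM without Tg and 125, 387, 533 and 559 at 1, 2, 5 and 8 h. PERK -/- MEFs had 110 without Tg and 115, 113, 116 and 173, and NIH3T3 cells 658 without Tg, 487 at 2 h and 629 at 7 h. The WT level at 1 h was that of the control within counting error, and the 3 later WT libraries stood above all PERK -/- libraries. Eif4ebp1 rose 3.16-fold at 2 h, 4.35-fold at 5 h and 4.56-fold at 8 h in WT MEFs, and unlike Sesn2 had not risen at 1 h. The change of counts at 8 h was 2.19 (2.03 to 2.35) for WT cells and 0.64 (0.39 to 0.89) in PERK -/- MEFs, where the 3 earlier intervals held 0. The genotypes' intervals overlapped at 1 h and were apart from 2 h on. In NIH3T3 cells the change was -0.31 (-0.46 to -0.16) at 2 h and -0.07 (-0.17 to 0.04) at 7 h.

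Eif4ebp2 (chr10:61428491-61452790, minus strand), which encodes the second 4E-BP, ran against Eif4ebp1 in WT MEFs. It had 28.3 TPM without Tg and 16.7, 8.00, 10.25 and 10.9 at 1, 2, 5 and 8 h. In the PERK -/- cells, it had 16.1 without Tg and 20.5, 23.1, 32.9 and 26.6, and in NIH3T3 cells 43.9 without Tg, 16.7 at 2 h and 23.2 at 7 h. All 4 WT Tg libraries were below their control and all 4 of PERK -/- MEFs above theirs. The WT fall was 3.53-fold at 2 h, 2.76-fold at 5 h and 2.60-fold at 8 h. At 2 h the log2 change was -1.82 in TPM and between -1.17 and -1.06 with TMM or DESeq2 factors, CPM or thinned counts, each with a floor of 4. Few reads stood behind it, with 100 counts without Tg and 6, 17 and 36 at those times, and the intervals were wide, at -1.82 (-3.30 to -0.64) at 2 h and -1.38 (-1.97 to -0.81) at 8 h. The rise in PERK -/- MEFs at 5 h was 2.05-fold, from 32 to 80 counts, or 1.07 (0.46 to 1.71), and was short of 2-fold with a pseudocount of 1 TPM (0.99) and after thinning (0.52). The fall in NIH3T3 cells at 2 h was 2.63-fold, or -1.27 (-2.15 to -0.51), and at 7 h the change was -0.92 (-1.44 to -0.42). WT and PERK -/- intervals overlapped at 1 h alone.

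**Figure D3:**
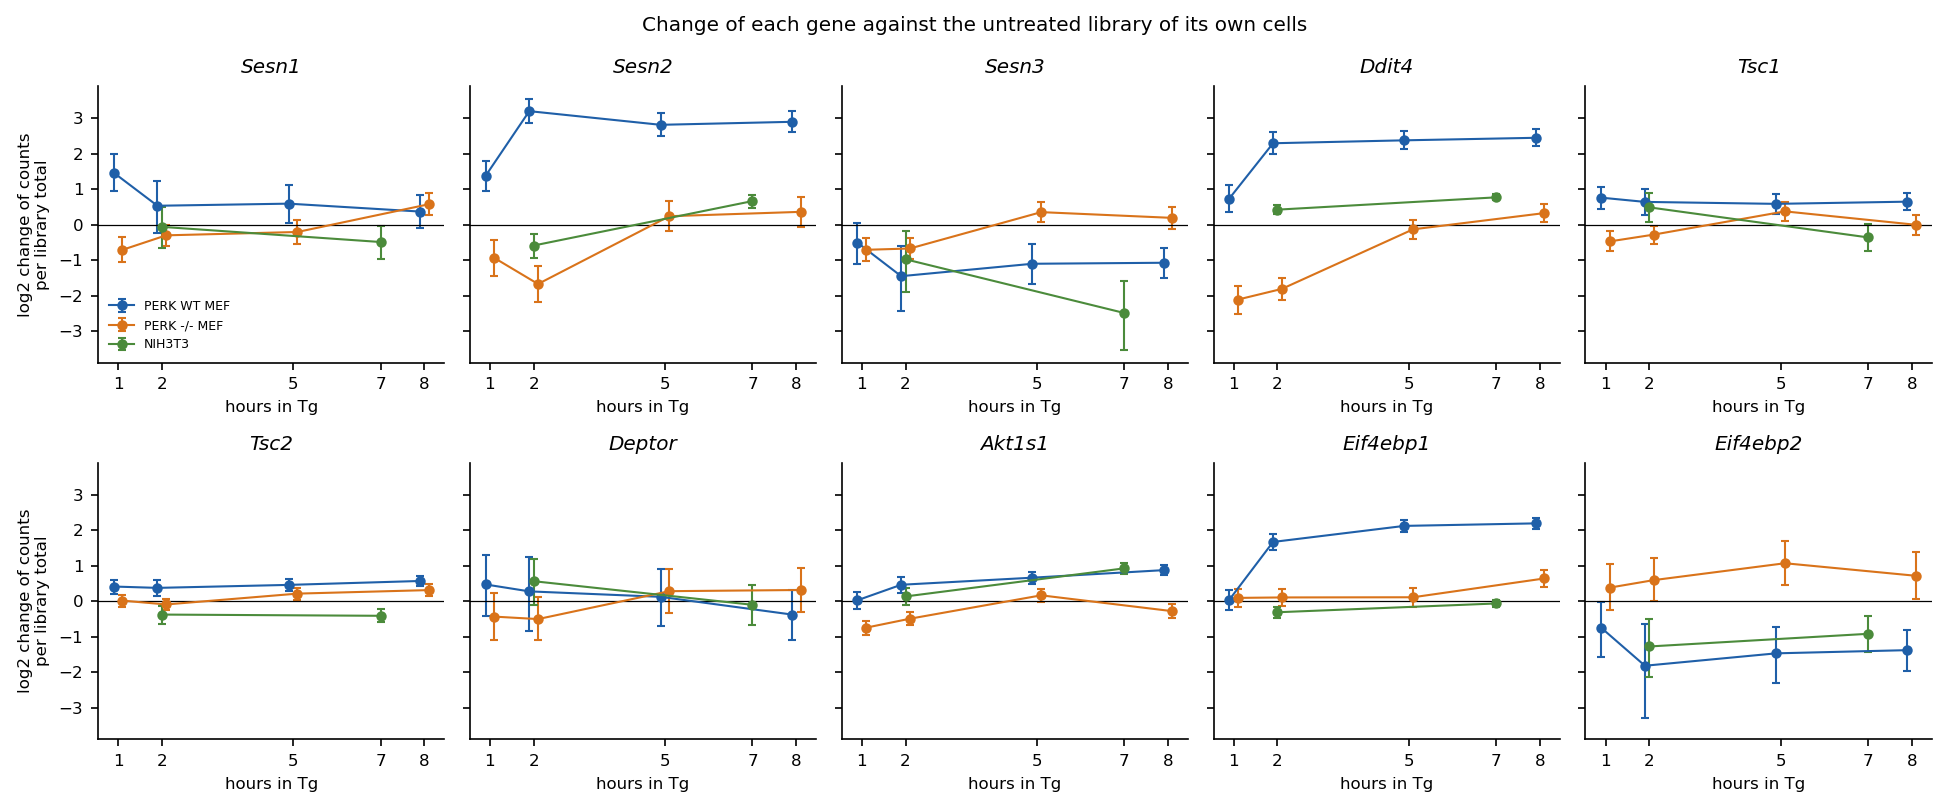
Log2 change of expected counts per library total against the untreated library of the same cells (vertical axis) by hours in Tg, with exact 95% counting intervals, for the 10 genes. The intervals of WT (blue) and PERK -/- MEFs (orange) are apart at all 4 times for Sesn2, Ddit4 and Akt1s1, and overlap at all 4 for Deptor. NIH3T3 cells are in green.

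The balance of the 4E-BPs shifted within the library. Eif4ebp1 was 4.33 (3.48 to 5.45) times Eif4ebp2 in TPM in untreated WT MEFs, 7.47 (4.54 to 12.996) at 1 h, 48.4 (21.98 to 133) at 2 h, 52.0 (32.3 to 89.7) at 5 h and 51.3 (36.9 to 73.5) at 8 h. In PERK -/- MEFs the ratio was 6.85 (4.71 to 10.3) without Tg and between 3.53 and 6.51 in Tg. NIH3T3 cells had 15.0 (12.8 to 17.7) without Tg, 29.2 (17.5 to 52.7) at 2 h and 27.1 (20.0 to 37.7) at 7 h. The target of both proteins, Eif4e, had 542 TPM in untreated WT MEFs and 420, 342, 282 and 274 in Tg, which did not reach 2-fold in TPM. On counts its log2 change was -0.99 (-1.09 to -0.89) at 5 h and -1.06 (-1.14 to -0.98) at 8 h. Summed over Eif4ebp1 and Eif4ebp2, TPM per TPM of Eif4e was 0.278 in the WT control and 0.337, 1.16, 1.92 and 2.08 at 1, 2, 5 and 8 h. For PERK -/- MEFs this was 0.251, 0.217, 0.212, 0.366 and 0.598 without Tg and at those times, and in NIH3T3 cells 2.93, 2.52 and 2.69. These are footprints and not protein amounts, and neither phosphorylation nor binding was measured.

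**Figure D4:**
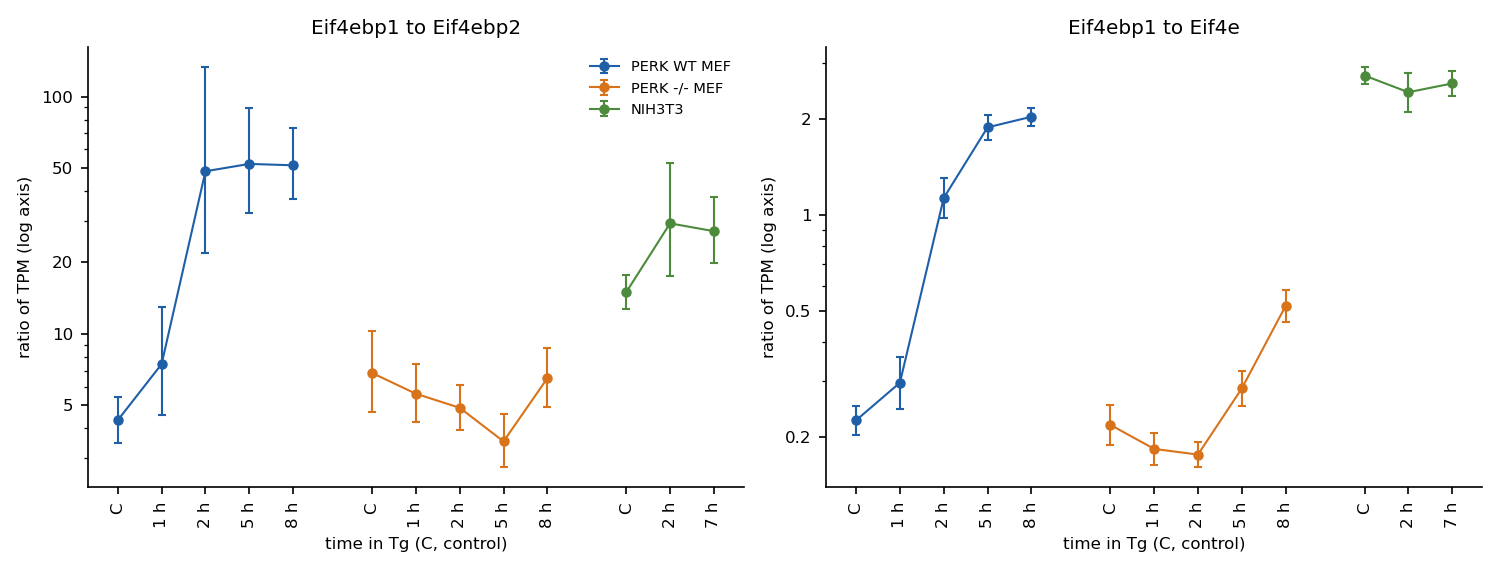
Ratio of TPM (log axes) of Eif4ebp1 to Eif4ebp2 (left) and of Eif4ebp1 to Eif4e (right) in each library, with exact 95% counting intervals. In WT MEFs (blue) the first ratio is between 48.4 and 52.0 from 2 h on and the second reaches 2.04 at 8 h, while PERK -/- MEFs (orange) stay at or under 6.85 and 0.518. NIH3T3 cells are in green.

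The paralogs outside the list were read weakly. Eif4ebp3 had 9 to 49 counts in WT MEFs and was at 1.13 (0.39 to 1.89) on counts at 8 h, and in PERK -/- MEFs at 5 h at 1.58 (0.80 to 2.42). Ddit4l, the paralog of Ddit4, had at most 43 counts in MEFs and 0 in each of the 3 NIH3T3 libraries, where 3 counts were worth 0.270 to 1.17 CPM.

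Untreated PERK -/- MEFs had more Sesn1 and Ddit4 footprints than untreated WT MEFs, by 3.16-fold and 2.24-fold, and none of the 10 genes was at least 2-fold lower. Of all expressed genes, 6.04% were higher and 1.97% lower by that measure. The change of counts was 1.83 (1.41 to 2.26) for Sesn1 and 1.16 (0.87 to 1.45) for Ddit4. Sesn3 was at 0.94 (0.62 to 1.27) and Eif4ebp2 at -0.82 (-1.44 to -0.23), both short of 2-fold in TPM. In all, 8 of the 10 intervals lay above 0, that of Eif4ebp2 below it, and that of Eif4ebp1 held it, where 39.6% of all expressed genes had an interval above 0 and 20.9% one below it. The early drop of Ddit4 in PERK -/- MEFs was thus measured from a control that was above the WT control, and its 11.6 TPM at 1 h was below the 22.8 TPM of untreated WT cells. All 4 comparisons of a genotype share 1 control library.

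On counts, 6, 7, 6 and 7 of the 10 genes had WT and PERK -/- intervals that did not overlap at 1, 2, 5 and 8 h, beside 40.2%, 44.5%, 45.4% and 44.3% of all expressed genes.

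Neighbouring times gave a yardstick in place of replicates, though they differ in treatment. Between 5 and 8 h in WT MEFs no gene of the 10 was 2-fold apart and the median distance was 0.07 on the log2 scale, with a maximum of 0.23 for Sesn1, and 0.144% of all expressed genes were 2-fold apart. Between 5 and 8 h in PERK -/- MEFs the median distance was 0.32 and the maximum 0.66, again for Sesn1, with none of the 10 and 6.9% of all expressed genes 2-fold apart. From 1 h to 2 h, 5 of the 10 were at least 2-fold apart in WT MEFs, by up to 1.83 for Sesn2, and none in PERK -/- MEFs, against 4.04% and 0.997% of all expressed genes.

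Among the other 59 genes of the pathway that were listed, 57 were expressed in MEFs. In WT MEFs 2, 5, 5 and 5 rose and 0, 2, 0 and 1 fell at 1, 2, 5 and 8 h, with medians of 0.02, 0.13, 0.00 and 0.05 (log2). In MEFs lacking PERK, 0, 0, 2 and 1 rose and 2, 1, 1 and 0 fell. In NIH3T3 cells 53 were expressed, of which 2 rose and 1 fell at 2 h and 2 rose and 6 fell at 7 h. The 5 rises in WT MEFs at each of 2, 5 and 8 h were 8.77% of the expressed ones, beside 5.66% to 6.45% of all genes, and the 6 that fell in NIH3T3 cells at 7 h 11.3%, beside 8.06%. The KICSTOR subunit Itfg2, part of the complex that anchors GATOR1 at the lysosome, rose in 3 of 4 WT libraries, by 2.36-fold at 8 h, and in both NIH3T3 libraries, by 4.19-fold at 7 h. Flcn, the GTPase activator for RagC and RagD, rose in 3 of 4 WT libraries, by 2.26-fold at 5 h. The S6 kinase gene Rps6kb2 rose in all 4 WT libraries, by up to 3.52-fold at 1 h, and fell in 2 of 4 PERK -/- libraries, by up to 2.37-fold at 2 h. On counts these 2 log2 changes were smaller, at 1.52 (0.99 to 2.05) and -0.92 (-1.38 to -0.46), the latter short of 2-fold. The lysosomal arginine sensor gene Slc38a9 rose in 2 of 4 PERK -/- libraries, by 2.87-fold at 8 h. Prr5l, an mTORC2 subunit, rose in 3 of 4 WT libraries, by 3.85-fold at 2 h, and the kinase Akt1 fell in both NIH3T3 libraries, by 3.12-fold at 7 h. Mtor itself was at 0.58 (0.44 to 0.72) in WT MEFs at 8 h on the log2 scale of counts, and at 0.22 (0.03 to 0.41) in PERK -/- MEFs. GATOR2, the partner of the sestrins, had none of its 5 genes at 2-fold in any Tg library, and 8 Rag and Ragulator genes expressed in MEFs gave none either. Of all expressed genes, 0.623% to 7.01% rose and 2.29% to 8.06% fell in a Tg library, so none among so few genes is near that share.

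Lists of the transcription factors known to drive these brakes are set beside them. Of 8 ATF4 targets (without the 10 genes), 5, 7, 8 and 8 rose in WT MEFs at 1, 2, 5 and 8 h, with medians of 2.03, 3.90, 4.01 and 4.06. In the PERK -/- cells, 0, 1, 0 and 2 rose and 1, 1, 2 and 0 fell, and in NIH3T3 cells 5 rose at 2 h and 6 at 7 h, with medians of 1.31 and 1.74. Trib3, an ATF4 target, rose 44.3-fold in WT MEFs at 8 h and fell 3.13-fold in PERK -/- MEFs at 1 h, from 89 to 34 counts. It was still 2.37-fold down in PERK -/- MEFs at 5 h, when Ddit4 was near its control. Atf4 itself was at -0.69 (-0.94 to -0.45) in PERK -/- MEFs at 1 h and 3.83 (3.68 to 3.99) in WT MEFs. At 2 h in PERK -/- MEFs Atf4 was at -0.20 (-0.41 to 0.01) and Ddit4 at -1.81 (-2.12 to -1.50). The part of ATF4 in the course of Ddit4 was not tested. Ddit3, also on the list, rose 42.0-fold in WT MEFs at 8 h and 23.0-fold in NIH3T3 cells at 2 h. In PERK -/- MEFs at 2 h it rose 2.05-fold.

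Of 7 FoxO targets, 4 (57.1%) rose at each WT time, beside 4.33% to 6.45% of all expressed genes. None fell, and the medians were 1.35 to 1.63. In PERK -/- MEFs 1, 0, 0 and 0 rose and 0, 2, 0 and 0 fell, with medians of -0.45, -0.49, 0.07 and 0.34. Txnip rose 9.89-fold and the insulin receptor substrate gene Irs2 4.18-fold at 2 h in WT MEFs, while Sesn3, named above as a FoxO target, fell there. Of 10 p53 targets, 2, 1, 1 and 1 rose and 1 fell at each time in WT MEFs, with Ccng1 falling 4.70-fold at 8 h and Plk2 rising 2.33-fold at 1 h. Without PERK, none of the p53 targets rose and 2, 2, 1 and 0 fell. A single p53 target was 10% of its list in MEFs, where 0.623% to 6.45% of all expressed genes rose and 2.29% to 5.78% fell. In NIH3T3 cells 3 of 6 expressed FoxO targets rose at 2 h and 3 at 7 h, and 0 and 1 fell. Of 9 expressed p53 targets there, 1 rose at each time, and 3 and 2 fell. Of all expressed genes there, 5.76% and 7.01% rose and 3.76% and 8.06% fell.

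Genes whose mRNAs carry a 5′ TOP motif, which mTORC1 activity favours, were also counted. Of 15 TOP mRNAs other than those of ribosomal proteins, none rose in WT MEFs and 4, 3, 3 and 3 fell, among them Pabpc1 by 3.25-fold at 1 h and Npm1 by 2.83-fold at 8 h. The falls in WT MEFs were 26.7%, 20.0%, 20.0% and 20.0% of the 15, beside 2.29% to 4.01% of all expressed genes. In MEFs lacking PERK, none passed 2-fold until 8 h, when 2 fell (13.3%, beside 2.73%). The TOP medians were -0.10, -0.27, -0.34 and -0.40 in WT MEFs. Those in PERK -/- MEFs were 0.24, 0.31, -0.05 and -0.41. In NIH3T3 cells none of the 15 passed 2-fold, with medians of -0.26 at 2 h and 0.27 at 7 h. For 77 cytosolic ribosomal protein genes the WT medians were -0.33, -0.24, -0.15 and -0.21, and those in PERK -/- MEFs 0.26, 0.28, -0.10 and -0.44. At most 4 of the 77 passed 2-fold in any MEF library in 1 direction.

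Genes with the most similar course over the 10 MEF libraries were sought among 7655 genes by Pearson's r of log2 TPM, a description in which the points share 2 controls and 2 genotypes. For Sesn2 they were Cdt1, Tceb2, Irs2, Aar2 and Trim35 (r from 0.975 to 0.982). Those of Ddit4 were Zswim1, Cenpt, Trip6, Sec13 and Cdan1 (0.974 to 0.980). For Eif4ebp1 they were the cationic amino acid transporter gene Slc7a1, Mtbp, Acot2, the cystine transporter gene Slc7a11 and Uhrf1bp1 (0.988 to 0.990). Sesn3 was followed most closely by Vps4a, Npepps, Cdkn3, Eef1akmt1 and Wls (0.981 to 0.991), Sesn1 by Hmox2, Saal1, Slco4a1, Tmem45a and Tmem176b (0.953 to 0.966) and Eif4ebp2 by Pcgf3, Naa60, Wnk1, Wac and Chmp5 (0.938 to 0.968). NIH3T3 cells were not part of this search. At 7 h there, where Eif4ebp1 was at -0.07 on counts, Slc7a1, Mtbp, Acot2, Slc7a11 and Uhrf1bp1 were at 0.60, -0.09, 2.32, 1.83 and 0.13 in TPM. Where Sesn3 was at -2.49 on counts, Vps4a, Npepps, Cdkn3, Eef1akmt1 and Wls were at -1.28, -0.49, 0.25, -0.57 and -0.14. Deptor, Tsc1, Tsc2 and Akt1s1 varied less than 4-fold over the MEF libraries and were not searched.

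Within a library, the order of the 10 levels was led by Eif4ebp1 and, from 2 h in WT MEFs, by Ddit4 and Akt1s1 after it. Of the 9 pairs of neighbours in that order, between 2 and 6 had overlapping intervals, so a part of the order was not resolved. Summed over the 10 genes, TPM went from 273 in untreated WT MEFs to 299, 681, 838 and 886 at 1, 2, 5 and 8 h. The sum was 312, 232, 248, 344 and 399 in PERK -/- MEFs, and 1140, 997 and 1369 in NIH3T3 cells.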

How the data were processed

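Ribosome footprints of 13 libraries, 1 per condition, were analysed. Per the study's methods and the submitters' processing notes, footprints from 22 through 34 nt were retained by the authors, STAR was used against rRNA and tRNA, and the remainder was mapped by Bowtie2 to mm10 RefSeq coding sequences shortened by 30 nt at either end, without transcripts under 100 nt. The versions are not given in the sources used here. RSEM's expected counts, deposited as whole numbers, carry no scaling between libraries. TPM was computed by the authors with RSEM within each library, so MEF and NIH3T3 levels come from tables made separately.

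Library totals ran from 2525029 to 14799515 expected counts, which sets the width of the intervals. Groups came from the sample labels and doses from the study's methods. TPM under 4 was raised to 4, genes averaging 2 TPM or more in their table were used, and a ratio of at least 2 was called. Count ratios per library total had exact conditional (Clopper-Pearson) 95% intervals. With 1 library per condition no test was made. The members and gene lists were chosen with earlier results of these data known. The rule for named genes took the 10 members, from each list at most 4 genes called in at least 2 Tg libraries of the same cells with at least 50 counts in 1 of the libraries compared, the 5 genes most alike to each member that varied at least 4-fold, the ATF4 axis genes and Eif2ak3. Alternatives were a floor or a pseudocount of 1 TPM, TMM factors (edgeR 4.0.16) and DESeq2 1.42.0 size factors on R 4.3.3, CPM, counts thinned to the smallest library, a minimum mean of 5 TPM, no filter, and 1.5-fold and 3-fold thresholds. Python 3.11.15, numpy 2.4.6, pandas 2.3.3 and scipy 1.17.1 were used. Calls and intervals were tested on data simulated with counting error alone, for genes with untreated WT levels well above the floor. Members nearer to the floor, such as Sesn1, Sesn3 and Deptor, were outside that range. The files hold 25 symbols that had been turned into dates, none of them a member. Protein sequences were not analysed here.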

Additional observations from a re-analysis of the deposited data

Results flagged for a closer look

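Eif4ebp2 was picked out because its 4 WT Tg libraries all lay below their control and the 4 PERK -/- Tg libraries all lay above theirs. On the log2 scale of counts the WT changes ran from -1.82 to -0.75 and the PERK -/- changes from 0.38 to 1.07, and the WT median was lower by 2.08 (WT minus PERK -/- of -2.08). The 4 libraries of a genotype share 1 control, with 100 counts in WT and 32 in PERK -/- MEFs, and the untreated PERK -/- level was the lower. The difference was not tested, since each condition was 1 library.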

How the results depend on the processing

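No paired analysis was possible because each condition was 1 library, and no replicate could be left out. None of the changes of the 10 genes that were called turned its direction under another floor, a pseudocount, another scaling or thinning. Of the 22 called changes against an untreated library, 19 stayed at least 2-fold under all 6 of these settings. Those that did not were Sesn3 of WT MEFs at 5 h and 8 h, at -0.94 and -0.92 with a pseudocount of 1 TPM, and Eif4ebp2 in PERK -/- MEFs at 5 h, at 0.99 with that pseudocount and 0.52 after thinning. Counts of the 10 genes past the threshold were within 1.5 times of the value reported in 172 of 204 alternative values, and the others follow. With a 1.5-fold threshold, 4 rose and 1 fell in WT MEFs at 1 h, 5 rose at 5 h and 5 at 8 h. In PERK -/- MEFs 5 then fell at 1 h and 3 rose at 8 h, and in NIH3T3 cells 3 fell at 2 h and 3 rose and 2 fell at 7 h. With a 3-fold threshold, 0 rose in WT MEFs at 1 h, 1 fell at 2 h and 0 fell at 5 h and 8 h, 1 fell at 2 h and 0 rose at 5 h in PERK -/- MEFs, and 0 fell in NIH3T3 cells at 2 h. A pseudocount of 1 TPM left 1 fall at 5 h and at 8 h in WT MEFs, 0 rises in PERK -/- MEFs at 5 h and 1 fall in NIH3T3 cells at 7 h. Thinning gave 1 fall in WT MEFs at 1 h, 2 falls at 1 h and 0 rises at 5 h in PERK -/- MEFs, and 2 falls in NIH3T3 cells at 2 h and at 7 h. A floor of 1 TPM gave 2 falls at 2 h and 1 at 7 h in NIH3T3 cells, where TMM and DESeq2 factors each gave 1 rise and 1 fall at 7 h and CPM 1 fall. The fall added in NIH3T3 cells by another floor, pseudocount or scaling was that of Sesn3, and thinning added that of Eif4ebp2 at 7 h as well. Under the scalings the floor of 4 lay on CPM, where Sesn3 went from 10.7 without Tg to 1.91 at 7 h. Medians of the gene lists stayed within 0.2 on the log2 scale in 576 of 600 alternative values, and counts within the lists stayed within 1.5 times in 1003 of 1200. Low counts limit Deptor, Sesn3 and Eif4ebp2 most.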
